A study of Mus musculus with 10 samples.

Results

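Long-term cultures of left atrial appendage cells at passages 6, 8 and 10 were set against the primary cells that first grow out of the same tissue, to find changes shared by every passage. A gene was counted as separated when its values in all 6 cultured libraries lay above, or all below, its values in the 4 primary libraries. Of 14254 genes tested, 2115 were separated, 959 with all cultured values above and 1156 with all below. These counts describe the deposited values and carry no test, because the values themselves chose the genes.

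RNA sequencing covered 10 libraries of cells from C57BL/6 mice aged 8 to 12 weeks, with 2 libraries for each of 5 cell types. The long-term cultures all came from cells of type B: C1 (passage 6) carried the phenotype c-kit+/CD45-, while C2 (passage 8) and C3 (passage 10) were c-kit-/CD45-. The primary cells were A, from strong digestion with 0.25% trypsin and sorted as c-kit+/CD45-, and B, from weak digestion with 0.05% trypsin and sorted as c-kit+/CD45+. All explants were digested 3 times for 5 min, with collagenase D at 0.1%, and grown in a medium with serum. c-kit is a growth factor receptor of progenitor and mast cells, and CD45, encoded by Ptprc, is a surface phosphatase of nearly all leukocytes. Whether both libraries of a type had their own mice or dishes is not stated, and the p-values therefore reflect library-to-library spread that could be technical. Passage and origin from B, with its weak digestion, cannot be told apart in this design, since no A-derived culture was included. The sort moves with them only in part, since A and C1 share c-kit+/CD45- while B differs from every culture in CD45. The part of the sort was not tested. Transcripts of the sex chromosomes also differed between the cultures, as given below, and the part of that difference was not tested.

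The left atrial appendage is a muscular pouch of the heart whose interstitium holds fibroblasts, vascular cells, resident macrophages and, at its surface, the epicardium. Cells that leave a tissue explant are a mixture, and serial passaging keeps those that attach and divide. Cells kept in culture also commonly lose tissue-specific transcripts and gain others.

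Values were deposited as log2 with the median of each gene over the 10 libraries taken away, so that 0 stands for that median and only differences between libraries are known for most genes. For some genes the level could also be found, from libraries sharing a floor read here as 1 normalized read or from values falling on whole reads. Relative depth differed by 11.5 times between the deepest library, in C3, and the shallowest, in B. A library without a read of a gene allowed up to 3 reads, which was 1 to 6.12 normalized reads in the cultures and 5.04 to 6.88 in the primary cells (counting error only). Ptprc was at 1 to 1.01 normalized reads in the cultures, against 6.72 and 82.1 in A and 2823 and 2723 in B. The A libraries differed among themselves, with a root mean square log2 difference of 1.06, against 0.43 to 0.52 in the other types, and A replicate 2 held more leukocyte transcripts than A replicate 1. Kit had 35.3 and 66.4 normalized reads in the C1 libraries, 1 and 3.11 in those of C2 and 1 in both of C3, against 3.36 and 72.3 in A and 22.9 and 12.7 in B. Its value in A replicate 1, a library labelled c-kit+, was within the limit of 3 reads. Transcripts from the Y chromosome and Xist, the RNA of the inactive X chromosome, were both present in A and B. Kdm5d from the Y chromosome had 390 and 388 normalized reads in the C1 libraries, 40.8 and 44.4 in those of C2 and 1 in both of C3, against 213 and 200 in A and 176 and 170 in B. Xist had 8.06 and 6.01 in the C1 libraries, 4.08 and 9.32 in those of C2 and 202 and 256 in those of C3, against 486 and 3960.0 in A and 6911 and 6062 in B.

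A test of the averages was made with limma, as the mean of C1, C2 and C3 minus the mean of A and B, and a gene was called at a Benjamini-Hochberg adjusted p under 0.05 with a log2 difference of at least 1. It called 1105 genes higher (7.75% of those tested) and 2424 lower (17%) in the cultures. Under quantile normalization, which moved the median difference of all genes to 0.09 from -0.04, the counts were 1747 higher and 1821 lower. With each library centred on its median they were 1118 and 2413. The size of the excess of lower genes thus depends on the kind of normalization. Separation was met by 6.73% of genes above and 8.11% below. Both rules were met by 427 genes above (3%) and 880 below (6.17%), which are the genes described from here on. Separation and the call rest on the same 10 values, so the call is a description of these genes and no support, and their p-values for this contrast are not given. Conversely, 678 genes called higher (61.4%) and 1544 called lower (63.7%) overlapped between cultured and primary libraries, so most changes of the average were not shared by every library. Of the 1544 called lower without separation, 792 (51.3%) were higher in B than in A by limma and 285 (18.5%) lower. Over all genes tested these shares were 14.5% and 12.4%. The requirement that each of the 6 comparisons of a culture with a primary type be called in 1 direction left 118 genes higher (0.828%) and 400 lower (2.81%). In these bulk samples fewer cells of a type and less RNA per cell cannot be told apart.

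The comparison has 3 cultured types and 2 primary types, and differences between types of 1 group are large. The cell type was therefore also treated as a random block, with 1 within-type correlation of 0.85 shared by all genes. Single libraries still set the degrees of freedom, so this fit is less strict than a comparison of 3 cultured with 2 primary types. In it limma called 10 genes higher and 75 lower, and all 85 were separated genes. The 10 were Dmrt2, Dlx1, Bnc1, Adcy1, Foxa2, Dpysl5, Cxadr, Met and the clones A630023A22Rik and 9430018G01Rik, of which Dpysl5, Cxadr, Met and both clones were singled out after their values were seen. The gap between the nearest cultured and primary library had a median of 0.44 on the log2 scale among the 427 genes above and 0.74 among the 880 below. It was at least 1 in 72 genes above and 326 below, and at least 2 in 26 above and 167 below. At the edge of the rule, Dennd4a was just inside with a gap of 0.0015 above and Cd97 with 0.00011 below, and Snora41 missed by 0.00019 above and 2510039O18Rik by 0.0038 below.

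**Figure D1:**
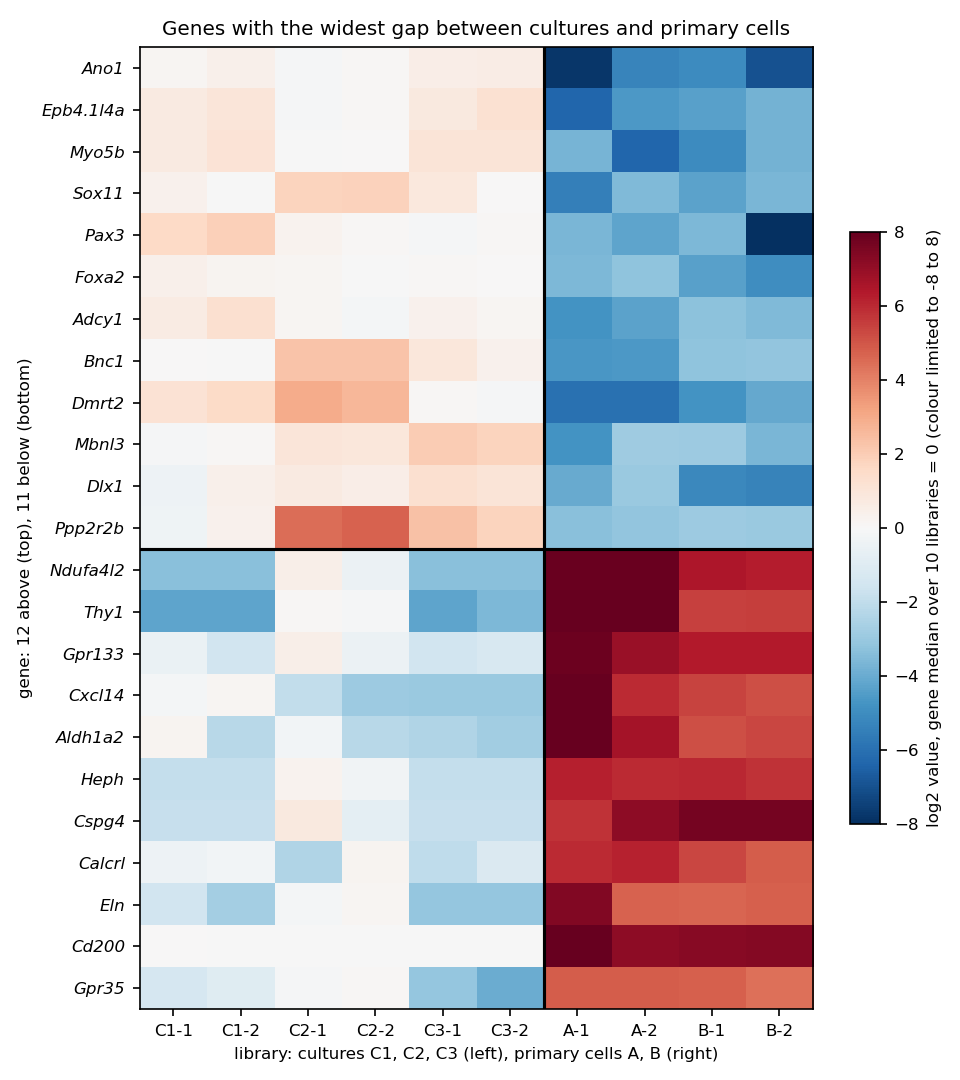
Deposited log2 values (colour, gene median over 10 libraries = 0) of the 23 named genes with the widest gap, one row per gene and one column per library, cultures C1, C2 and C3 left of the line and primary cells A and B right of it. The 12 genes at the top have all 6 cultured values above the 4 primary values, and the 11 at the bottom have all 6 below.

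Among the 12 named genes with the widest gaps above were the transcription factors Sox11, Pax3, Foxa2, Bnc1, Dmrt2 and Dlx1, and the 3 widest gaps were those of Ano1, Epb4.1l4a and Myo5b. Bnc1, a zinc-finger factor of keratinocytes, germ cells and mesothelium, had 448 normalized reads in the lowest culture, 733 at the median and 2275 in the highest, against 18.5 and 19.2 in A and 50.5 and 50.7 in B. The lowest culture, in C1, was 3.14 on the log2 scale above the highest primary library, and the averages differed by 4.88 ± 0.13 (log2 difference with its standard error from limma, as for every ± of such a difference below). Bnc1 was also the gene of the epicardial list that met the rule from above.

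Dmrt2, a factor of somite and muscle development, had 59.1 normalized reads in the lowest culture, 157 at the median and 480 in the highest. In the primary cells it had 1 and 1 in A and 2.29 and 3.62 in B, all at or under the limit that 3 reads set. Sox11, a factor of neural and mesenchymal progenitors, had 44.7, 69.7 and 163 normalized reads as the lowest, median and highest culture, against 1 and 3.83 in A and 2.29 and 3.62 in B. For both genes the primary values cannot be told from 0 at this depth, so no fold is given, and the groups did not overlap. Pax3, a factor of neural crest and muscle precursors, had 237, 286 and 946 normalized reads as the lowest, median and highest culture, against 20.2 and 13.4 in A and 20.6 and 1 in B. Its average was higher by 5.50 ± 0.77, and the single library at 1, in B, widened both that difference and its error.

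Foxa2, a pioneer factor of endoderm and floor plate, had log2 values of -0.04, 0.14 and 0.39 as the lowest, median and highest culture, against -3.58 and -3.24 in A and -4.36 and -4.96 in B. Its cultured libraries lay within a narrow band well above all primary ones, and the averages differed by 4.18 ± 0.15. Dlx1, a homeobox factor of forebrain interneurons and branchial arches, differed by 4.97 ± 0.26 and was higher in C3 than in C1 by 1.15 ± 0.40 (limma, adjusted p = 0.0456). Smaller differences of regulators were those of Meis2, a homeobox cofactor expressed in the developing heart (1.42 ± 0.09), and of Bmi1, a Polycomb protein that represses Cdkn2a (1.20 ± 0.10). Cdkn1b, an inhibitor of cyclin-dependent kinases, was higher by 1.04 ± 0.13. Its list, of such inhibitors and p53 targets, went the other way on average. Of 25 measured, 2 were called higher and 5 lower, with a median difference of -0.39. Of 23 measured genes of DNA methylation and Polycomb, 4 were called higher (2 without B or without C2) and 2 lower (4 without A). Among all genes tested, 7.75% were called higher and 17% lower. Only Bmi1 above and Dnmt3l below met both rules in the methylation and Polycomb list.

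Ano1, a calcium-activated chloride channel of smooth muscle, epithelia and pacemaker cells of the gut, had 208, 270 and 341 normalized reads as the lowest, median and highest culture, against 1 and 5.75 in A and 6.88 and 1.81 in B. The cultures were alike and all primary libraries stood at or under their limit of 3 reads. Adcy1, an adenylyl cyclase stimulated by calcium and calmodulin, was higher by 4.39 ± 0.17, with log2 values of -0.13, 0.27 and 1.30 in the cultures, against -4.75 and -4.30 in A and -3.30 and -3.55 in B. Myo5b, a motor of recycling endosomes, differed by 5.37 ± 0.51, Epb4.1l4a, a protein of the membrane skeleton, by 5.39 ± 0.34, and Mbnl3, a splicing regulator, by 4.51 ± 0.37. Ppp2r2b, a regulatory subunit of protein phosphatase 2A in neurons, differed by 5.31 ± 0.19 but varied widely between cultures, with log2 values of -0.37 and 0.37 in the C1 libraries, 4.48 and 4.75 in those of C2 and 2.34 and 1.77 in those of C3.

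The ligands Wnt16 and Wnt9a were above in every culture, and Wnt11, also a ligand, and Dkk2, a secreted Wnt inhibitor, were below, while 3 of 24 measured Wnt genes were called higher and 4 lower, against 7.75% and 17% of all genes. Without A the counts were 5 and 2, without B 2 and 10 and without C2 3 and 8. Wnt16, a ligand of bone and joint cells, had 15.1, 27.2 and 155 normalized reads as the lowest, median and highest culture, against 1 and 1 in A and 1 and 1.81 in B. Both C2 libraries, at 155 and 151, stood far above those of C1 and C3, and all primary libraries were within their limit of 3 reads. Dkk2 differed by -4.94 ± 0.44. Wnt11 rested on few reads, at 1 to 3.38 in the cultures, against 89.1 and 65.1 in A and 6.88 and 18.1 in B, and one B value was itself at its limit. Of 31 measured genes of axon guidance, 7 were called higher and 11 lower (10 and 8 without A), with a median difference of -0.12. The same 7.75% and 17% of all genes stand beside these counts. Only 3 met both rules above, the cues Sema3a (3.73 ± 0.11), Sema3e (2.84 ± 0.23) and Efna5 (1.28 ± 0.12). Another 3 met them below, the receptors Robo2 (-3.67 ± 0.38) and Ephb2 (-4.89 ± 0.35) and the ligand Ntn1 (-2.80 ± 0.26).

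Of 23 measured integrins and cadherins, 3 were called higher (5 without C1) and 11 lower, and the median difference was -0.59, against -0.04 over all genes tested. Over all genes 7.75% were called higher and 17% lower. Itga3, which pairs to bind laminin, and Cdh3, the P-cadherin of epithelia, were above in every culture, with differences of 3.65 ± 0.31 and 3.16 ± 0.20. The integrin chains Itga2, Itga4, Itga5, Itga8, Itga9 and Itgb3 and the cadherin Cdh13 were below. Cdh13, a cadherin without a membrane-spanning part, was at the floor of 1 in all 6 cultures, against 147 and 47.8 normalized reads in A and 32.0 and 25.3 in B. Itga5, the receptor chain for fibronectin, differed by -1.14 ± 0.17, and its values in C3, at 0.14 and -0.14, came close to the lowest primary value of 0.17.

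Among the 11 named genes with the widest gaps below were Thy1, Cspg4, Eln and Ndufa4l2. Thy1, a surface glycoprotein of fibroblasts and T cells, had 1 normalized read in the lowest culture, 1.30 at the median and 20.3 in the highest, against 6322 and 5772 in A and 832 and 866 in B. The 2 highest cultures were those of C2, at 20.3 and 17.6, and the averages differed by -9.62 ± 0.14. Cspg4, the NG2 proteoglycan of pericytes, had 1, 1.00 and 6.12 normalized reads as the lowest, median and highest culture, all within the limit of 3 reads, against 195 and 503 in A and 720 and 725 in B. Eln, the elastin of elastic fibres, had 1, 2.18 and 9.46 in the cultures, against 1442 and 230 in A and 215 and 234 in B. For each of these 3 genes, values in both primary types were many times those of any culture.

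Ndufa4l2, a mitochondrial protein induced in hypoxia and abundant in pericytes, had 1, 1.00 and 14.3 normalized reads as the lowest, median and highest culture, against 2421 and 2402 in A and 910 and 795 in B (-9.37 ± 0.19). It was higher in A than in B, with B minus A at -1.50 (limma, adjusted p = 0.00644), but every culture lay far below both primary types.

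Cd200, a surface protein that restrains myeloid cells, was at 1 to 1.01 normalized reads in the cultures, against 1753 and 145 in A and 158 and 161 in B. Heph, a copper-dependent iron oxidase, was at 1 to 4.64 in the cultures, against 280 and 235 in A and 252 and 213 in B, and the 4 primary values lay close together. Gpr35, a receptor of gut and immune cells, was at 1 to 16.6 in the cultures, against 448 and 438 in A and 414 and 324 in B, a difference of -6.26 ± 0.19. Wide gaps below were also those of Gpr133, an adhesion receptor (-7.68 ± 0.30), Cxcl14, a chemokine (-8.03 ± 0.45), Aldh1a2, the enzyme that makes retinoic acid in the epicardium (-8.11 ± 0.68), and Calcrl, the receptor of adrenomedullin and calcitonin gene-related peptide (-6.59 ± 0.50).

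Of the 36 measured fibroblast and matrix genes, 0 were called higher and 23 lower, with a median difference of -1.72, and 7 met both rules (Thy1, Col3a1, Col15a1, Fbn1, Postn, S100a4 and Mfap5). The median of the list on the log2 scale was -0.04 and -0.09 in the C1 libraries, 0.37 and 0.12 in those of C2 and -2.30 and -2.88 in those of C3, against 1.52 and 1.41 in A and 0.02 and -0.02 in B. C1 and C2 thus lay near B, and C3 far under all others. Without A, 2 of the list were called higher and 14 lower, with a median difference of -0.62, and without C3 they were 5 and 16, with -0.84. The random block called 1 lower. Postn, a matrix protein of activated fibroblasts and valves, had log2 values of -6.71, -1.05 and 0.23 as the lowest, median and highest culture, against 4.36 and 3.58 in A and 2.32 and 2.19 in B. Its 2 lowest libraries were those of C3, at -5.73 and -6.71, and the averages differed by -5.53 ± 0.25. Fbn1, the main protein of microfibrils, differed by -2.83 ± 0.15, and Col3a1, the type III collagen chain, by -2.63 ± 0.28. Col1a1, the main type I collagen chain, did not pass, with a difference of -0.58, and its C2 values were 1.75 and 1.23, against 1.05 and 1.38 in A and 0.06 and -0.06 in B, so the groups overlapped. Of 16 measured smooth muscle genes, 5 were called lower and 2 higher (without A 4 and 5, without B 8 and 2, without C1 3 and 3). Over all genes 17% were called lower and 7.75% higher. Des, Notch3 and Cspg4 were below in every culture and Tpm1, a tropomyosin, was above by 1.08 ± 0.08.

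Of 14 measured endothelial genes, 0 were called higher and 11 lower, with a median of -3.35, and Pecam1, Cdh5, Tek, Tie1, Esam, Icam2 and Plvap met both rules. Cdh5, the cadherin of endothelial junctions, was at 1 to 1.01 normalized reads in the cultures, against 26.8 and 49.8 in A and 43.4 and 34.4 in B. The primary values were themselves low and of both types alike in range (B minus A 0.08, adjusted p = 0.842 by limma). Tie1, a receptor kinase of endothelium, was at the floor in all 6 cultures, against 6.98 and 38.3 in A and 13.7 and 21.2 in B. Without the B libraries 9 of the 14 were called lower, without the A libraries 12, and under the random block 2.

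Most measured leukocyte genes were called lower, and many of them overlapped between cultured and primary libraries. All 32 measured macrophage and monocyte genes were called lower, with a median of -6.37, and 11 met both rules. For pan-leukocyte genes the figures were 18 of 20 and 9, with a median of -5.79, and for antigen presentation by class II they were 10 of 10 and 5, with -3.59. The list of T, B, NK and mast cells and granulocytes had 3 measured genes, 2 called lower and 1, the T cell kinase Lck, called higher (2.32 ± 0.19, above in every culture). The list median of the macrophage genes, on the log2 scale, was -0.88 to -0.01 in the cultures, against 0.00 and 3.48 in A and 9.17 and 9.07 in B. C1qa, a chain of the first complement component made by macrophages, had 2.33, 3.43 and 6.05 normalized reads as the lowest, median and highest culture, against 25.2 and 550 in A and 19459 and 19591 in B. B exceeded A by 7.37 for this gene (limma, adjusted p = 0.0037), so its difference of -8.77 ± 0.80 averages 2 unequal distances. Without the B libraries 10 of the 32 macrophage genes, 7 of the 20 pan-leukocyte genes and 4 of the 10 class II genes were called lower, and without A replicate 1 the number of macrophage genes that met both rules was 27. A 2-group model of cultures against primary cells, without terms for the cell types, called 16 macrophage and 12 pan-leukocyte genes lower, and the random block for cell type called 0 of either list.

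H2-Ab1, a chain of the class II molecules that present antigen, was at 1 to 1.04 normalized reads in the cultures, against 43.4 and 199 in A and 167 and 161 in B, and the groups did not overlap. B minus A was 0.82 (adjusted p = 0.316 by limma). Of 24 measured cytokines and chemokines, 19 were called lower (9 without B, 0 under the random block) and 3 higher, and Il6, Ccl3, Ccl9, Ccl12, Cxcl5, Csf1 and Spp1 were below in every culture. Il6, a cytokine of inflammation that fibroblasts also release, had log2 values of -2.13, -0.22 and 0.06 as the lowest, median and highest culture, against 1.99 and 2.68 in A and 2.44 and 2.32 in B. All 6 cultures were lower than all 4 primary libraries, by -3.01 ± 0.20 on average, and the primary types lay together. The leukocyte part in these cytokine values was not tested.

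**Figure D2:**
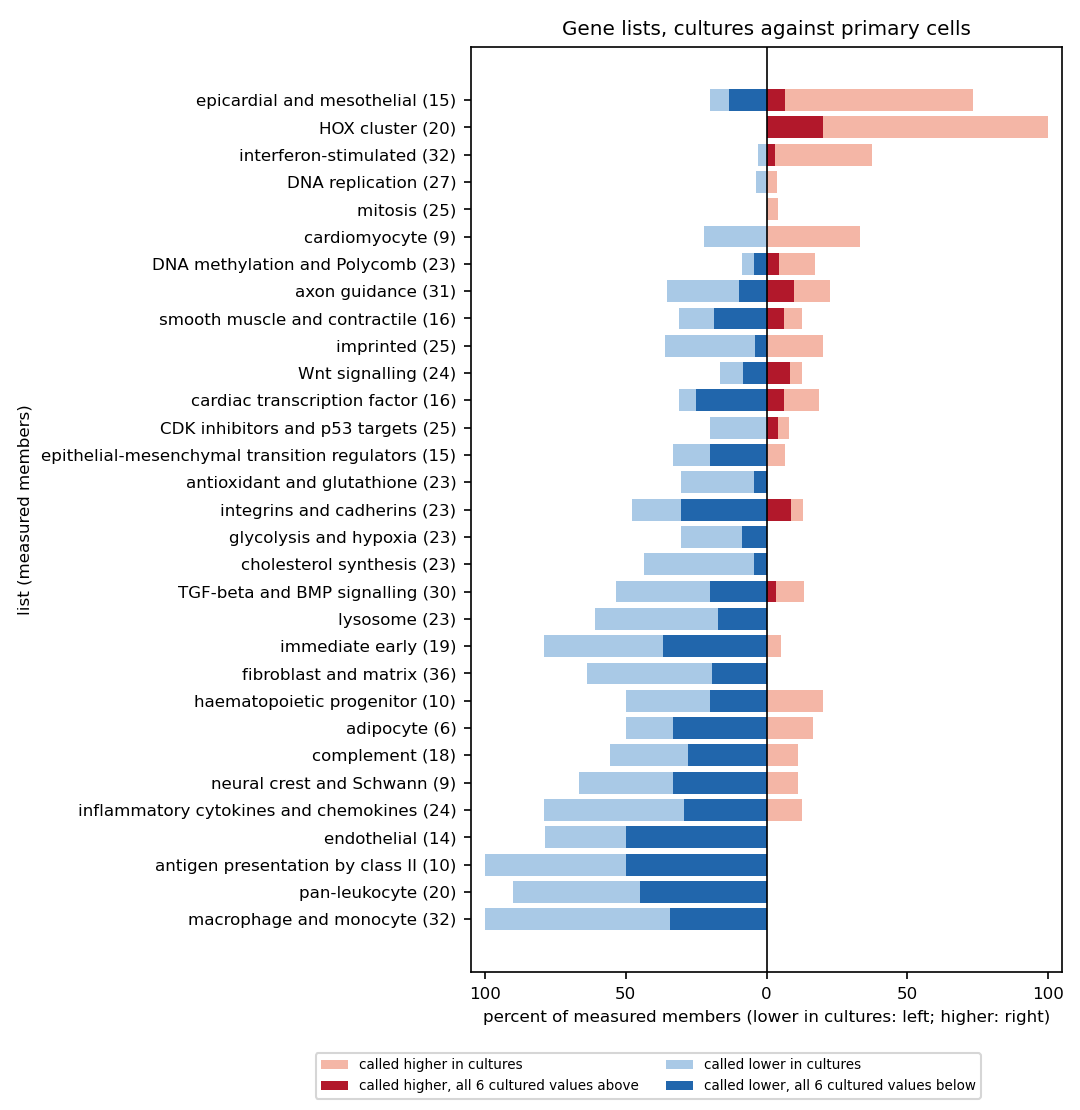
Share of the measured members of each gene list (horizontal axis, percent) called higher in the cultures (right) or lower (left) by limma, with the darker part of each bar for members that also had all 6 cultured values above or below the 4 primary values. Lists run from the highest median difference at the top to the lowest at the bottom, and macrophage genes (32 of 32 called lower, 11 of them dark) stand last.

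Of 16 measured cardiac transcription factors, 3 were called higher (5 without A or without C3, 1 without B) and 5 lower. The shares called over all genes were 7.75% higher and 17% lower. Tbx5, Tbx20, Tbx18 and Mef2c were below in every culture. Mef2c, a factor of muscle, endothelium and myeloid cells, had log2 values of -5.61, -4.49 and 0.11 as the lowest, median and highest culture, against 2.13 and 1.61 in A and 3.84 and 3.71 in B. C2, at 0.11 and -0.11, was far above the other cultures but still under all primary values, and the averages differed by -6.12 ± 0.26. Tbx18, a factor of the epicardium and sinus node, differed by -1.66 ± 0.11, and Tbx20, needed for chamber growth, by -1.22 ± 0.14. Gata4, a core cardiac factor, did not pass, with a difference of -0.24. Tbx5, which specifies atrial muscle and conduction tissue, rested on few reads, with 5.34 in the highest culture and 5.43 in the lowest primary library.

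Six2, a factor of nephron and craniofacial progenitors, was at the floor in all cultures, against 131 and 44.1 normalized reads in A and 22.9 and 16.3 in B. Zeb2, a repressor of E-cadherin, differed by -1.25 ± 0.11 and Foxc2, a factor of lymphatic and mesenchymal development, by -4.30 ± 0.25. Of 15 measured regulators of epithelial-mesenchymal transition, 1 was called higher and 5 lower, with a median of -0.49. Without A, 6 were called higher and 3 lower, with a median of 0.48. Of 30 measured genes of TGF-beta and BMP signalling, 4 were called higher (2 without B, without its replicate 2 or without C1) and 16 lower, with a median of -1.11. Over all genes 7.75% were called higher and 17% lower. Below in every culture were the ligands Inhba and Bmp6, the receptor Acvrl1, the inhibitory mediators Smad6 and Smad7 and the target Id3, and Smad9, a mediator of BMP signals, was above (1.14 ± 0.16). Acvrl1, an endothelial type I receptor of BMP9, had log2 values of -1.50, -0.47 and 0.14 as the lowest, median and highest culture, against 3.74 and 3.50 in A and 3.35 and 3.32 in B, and the difference was -4.09 ± 0.13.

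Immediate early genes are those that cells transcribe within minutes of a growth or stress signal. Of 19 measured, 15 were called lower and 1 higher, with a median difference of -1.56, while the 2-group model called 7 lower, quantile normalization 11 and the random block for cell type 0. By the cell-means fit 7 met both rules: Fos, Fosb, Jun and Junb, the subunits of the transcription factor AP-1, Ier2, a nuclear regulator, Dusp1, a phosphatase that switches off MAP kinases, and Zfp36, a protein that destabilises cytokine mRNAs. Transcription of several of these genes starts from short promoters that bind CREB at the core element TGACG of the cAMP response element. For this reason the 300 bases from 250 before to 50 after the start are shown for those of the 7 that hold the core element on either strand, from RefSeq on GRCm38.p6, 5′ to 3′ on the strand of the gene, with the core elements as read on that strand in capitals. Fos lies on the plus strand at chr12:85473640-85473939, and on the minus strand lie Fosb at chr7:19309996-19310295, Junb at chr8:84978699-84978998 and Dusp1 at chr17:26508423-26508722.
Fos: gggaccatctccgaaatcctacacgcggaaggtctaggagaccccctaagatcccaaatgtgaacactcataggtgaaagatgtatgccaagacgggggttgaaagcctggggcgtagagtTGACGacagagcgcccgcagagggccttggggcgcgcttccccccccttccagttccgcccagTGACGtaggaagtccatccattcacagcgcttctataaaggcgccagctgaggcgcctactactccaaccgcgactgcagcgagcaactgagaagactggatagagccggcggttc
Fosb: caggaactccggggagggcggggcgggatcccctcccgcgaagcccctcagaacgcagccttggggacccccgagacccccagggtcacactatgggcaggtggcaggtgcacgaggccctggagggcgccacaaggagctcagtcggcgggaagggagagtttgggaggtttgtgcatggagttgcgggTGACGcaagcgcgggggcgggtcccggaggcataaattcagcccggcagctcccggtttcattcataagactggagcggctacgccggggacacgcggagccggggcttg
Junb: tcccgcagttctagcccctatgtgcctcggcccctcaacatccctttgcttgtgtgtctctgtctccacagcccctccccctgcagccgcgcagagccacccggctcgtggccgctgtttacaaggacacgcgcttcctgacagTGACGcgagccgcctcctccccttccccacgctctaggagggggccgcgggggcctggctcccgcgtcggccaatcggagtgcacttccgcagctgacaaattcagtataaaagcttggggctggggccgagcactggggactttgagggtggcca
Dusp1: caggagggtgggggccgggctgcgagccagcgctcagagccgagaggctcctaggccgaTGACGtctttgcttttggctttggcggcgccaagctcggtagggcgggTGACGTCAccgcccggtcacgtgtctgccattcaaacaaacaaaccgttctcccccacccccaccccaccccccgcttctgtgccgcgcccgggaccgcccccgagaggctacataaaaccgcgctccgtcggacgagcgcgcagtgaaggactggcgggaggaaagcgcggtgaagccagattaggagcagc

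The core element was found in 4 of the 6 promoters available among the 7 genes (66.7%), in 10 of 15 of the whole list (66.7%) and in 34.2% of the 11057 tested genes with a promoter in the table. The full element TGACGTCA, which holds a core element on each strand, was found only in Dusp1 of these and in 3.47% of tested genes. The promoters of Jun and Zfp36 held no core element in this window, and the one of Ier2 was not used. A match describes letters and not a bound site.

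Fosb had log2 values of -3.17, -0.47 and 0.01 as the lowest, median and highest culture, against 1.87 and 2.08 in A and 2.96 and 2.86 in B. The lowest cultures were those of C1, at -1.96 and -3.17, and the averages differed by -3.46 ± 0.26. Fos had values of -1.83, -0.82 and 0.28 in the cultures, against 1.09 and 1.08 in A and 1.48 and 1.40 in B (-2.15 ± 0.40). The 4 primary values of Fos lay close together, while replicates of C1 were 0.28 and -1.83. Dusp1 differed by -2.39 ± 0.45, Jun by -1.75 ± 0.19, Zfp36 by -1.57 ± 0.24, Junb by -1.50 ± 0.19 and Ier2 by -1.18 ± 0.20. None of these 7 passed the test of B against A by limma. In C3 against C1 Fosb passed, higher in C3 by 2.21 (adjusted p = 0.00366), and the other 6 did not. Fosl1, an AP-1 subunit, was the list's gene called higher, by 1.06 ± 0.33, with 2.65 and 3.37 in C3 and -2.50 and -2.35 in C1, and without C3 the difference was -0.25.

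**Figure D3:**
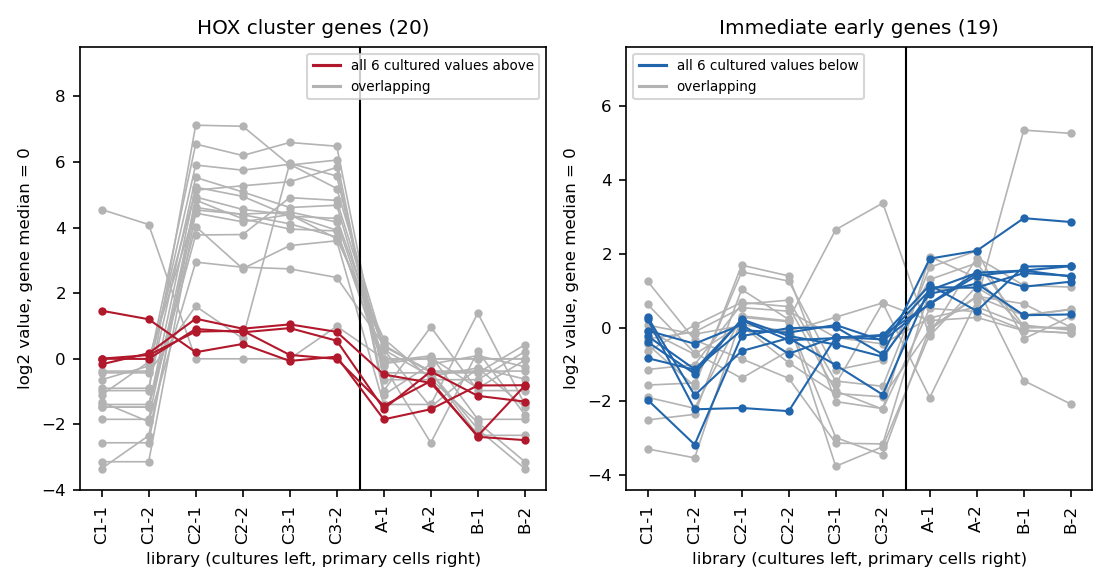
Deposited log2 values (vertical axis, gene median = 0) of 20 HOX genes and 19 immediate early genes in each library, one line per gene, cultures left of the line and primary cells right of it. The 4 HOX genes in red and the 7 immediate early genes in blue are separated, while most HOX genes in grey are high in C2 and C3 and low in C1.

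Lists whose average rose in the cultures were seldom shared by all passages. All 20 measured HOX genes, which set position along the body axis, were called higher (4 in the 2-group model, 0 under the random block), with a median of 2.97, but 4 met both rules, among them Hoxb2, Hoxb3 and Hoxb4. Hoxa7 had 1 and 1.34 normalized reads in the C1 libraries, 145 and 114 in those of C2 and 150 and 139 in those of C3, against 1 and 1 in A and 1 and 1.81 in B, so C1 could not be told from the primary cells. Hoxb4, with log2 values of -0.07, 0.33 and 1.46 as the lowest, median and highest culture, against -1.85 and -1.54 in A and -0.81 and -0.81 in B, was highest in C1, and its average differed by 1.80 ± 0.11. Without C1, 19 of the 20 HOX genes were called higher with all cultured values above. Interferon-stimulated genes, part of the antiviral response, were called higher in 12 of 32 and lower in 1, but Ifit2 (1.07 ± 0.15) was the one that met both rules, without C1 21 were called higher, and without C3 there were 0 higher and 9 lower. Of 15 measured epicardial genes, 11 were called higher and 3 lower, but the mesothelial markers Msln and Upk3b overlapped, since B held them too. Upk3b had log2 values of -0.89 and -1.40 in the C1 libraries, 0.29 and 0.03 in those of C2 and 4.21 and 4.37 in those of C3, against -5.34 and -5.38 in A and 0.13 and -0.03 in B.

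No measured gene of the mitosis and DNA replication lists met both rules. Of 25 mitosis genes 1 was called higher (Kif11) and of 27 DNA replication genes 1 higher (Mcm2) and 1 lower (Ccnd1). The median of the mitosis list was -1.87 and -2.43 in the C1 libraries, 0.34 and 0.48 in those of C2 and 1.95 and 2.04 in those of C3, against 0.13 and -0.15 in A and -0.45 and -0.54 in B. C1 was thus under, and C3 over, the primary cells. Without C1, 24 of the 25 mitosis and 18 of the 27 replication genes were called higher, and without C3, 5 mitosis genes were called lower. Of the pluripotency list Klf4 and Myc were measured, with differences of -0.44 and 0.11, and neither passed. In 25 imprinted genes, 5 were called higher (9 without A) and 9 lower (5 without C3), against 7.75% and 17% of all genes. Of the imprinted genes Dio3, an enzyme that inactivates thyroid hormone, met both rules. It was at 1 to 1.04 normalized reads in the cultures, against 60.5 and 47.9 in A and 16.1 and 32.6 in B.

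Separation used all 10 values, which constrains differences among the cultures and among the primary cells, so the counts that follow are a description and support nothing. Among the 427 genes above in every culture, 93 (21.8%) were higher and 37 (8.67%) lower in C3 than in C1 by limma, against 17.1% and 17.7% of all genes tested. Among the 880 below, 70 (7.95%) were higher and 186 (21.1%) lower in C3 than in C1. In the sets above and below, 297 (69.6%) and 624 (70.9%) did not pass. For C2 against C1 they were 47 higher (11%) and 20 lower (4.68%) of the genes above and 116 higher (13.2%) and 80 lower (9.09%) of those below, against 12.2% and 8.18% of all genes. For C3 against C2 they were 73 (17.1%) and 46 (10.8%) of the genes above and 46 (5.23%) and 208 (23.6%) of those below, against 11.6% and 16.2%. C3 and C1 also differed in depth, by 2.58 to 5.07 times between single libraries, and its part in these counts was not tested. Between the primary types, B exceeded A in 308 of the 880 genes below (35%) and was lower in 138 (15.7%), against 14.5% and 12.4% of all genes tested. Of the 427 above, 18 (4.22%) were higher and 65 (15.2%) lower in B. Examples among the genes below are Serping1, an inhibitor of complement proteases, at -4.67, and Ctsh, a lysosomal protease, at -6.30 (C3 minus C1, adjusted p = 3.18e-05 and 4.8e-06 by limma), both already below the primary cells in C1.

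Gene position was not used by the rule. For each library the median over the genes of a chromosome was taken of the value minus the primary mean, relative to all genes. In the primary libraries this shift stayed between -0.07 and 0.05 on chromosomes 3, 4, 6, 7, 10 and 19. In C1 it averaged -0.75 on chromosome 3, -0.78 on chromosome 4 and -0.83 on chromosome 7. In C2 it was -0.57 on chromosome 4, 0.51 on chromosome 6, 0.44 on chromosome 10 and 0.53 on chromosome 19. In C3 it was 0.48 on chromosome 6, 0.30 on chromosome 10, 0.46 on chromosome 19 and -0.22 on chromosome 7. Both libraries of a type lay close together, and cultured and primary libraries did not overlap on chromosomes 4, 6, 10 and 19. Not every culture was far off there, since C3 averaged only -0.06 on chromosome 4. C1 averaged 0.20 on chromosome 6 and 0.14 on chromosome 19, no more than its 0.21 on chromosome 1 and 0.27 on chromosome 16.

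The shifts ran along whole chromosomes. When the genes of chromosome 4 were split by position into 4 parts of like size, the C1 shift was -0.70, -0.78, -0.88 and -0.81 and the C2 shift -0.54, -0.48, -0.66 and -0.61. On chromosome 6 the C2 shift was 0.49, 0.54, 0.59 and 0.39, and on chromosome 10 it was 0.44, 0.45, 0.41 and 0.43. Genes on chromosomes 6, 10 and 19, chosen after these values were seen, were separated above in 15.5% of cases and below in 4.17%. On chromosomes 3, 4 and 7 the shares were 1.18% above and 14.7% below, and on all other chromosomes 6.58% and 7.15%. The shares over all genes were 6.73% and 8.11%.

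Most separated genes stayed separated without these shifts. With the shift of each library taken away from every gene, 801 genes were above and 1111 below, and 356 of the 427 (83.4%) and 754 of the 880 (85.7%) were still separated. Among genes of chromosomes 6, 10 and 19 the share still above was 60.6%, and among those of chromosomes 3, 4 and 7 the share still below was 60.2%. All 23 named genes with the widest gaps kept their call, an outcome that their choice by gap favours. Cdkn1b (0.64), Fosl1 (0.68), Kif11 (0.71) and Mcm2 (0.96) came under the minimum difference. Of the lists, 6 immediate early genes, 0 interferon-stimulated genes and 1 DNA replication gene then met both rules. Of the 27 replication genes, 2 were then called higher. Of the genes named above, Bnc1 and Ano1 lie on chromosome 7, where the C1 shift ran against their direction, and Jun, Zfp36 and Fosb lie on chromosomes 4 and 7, where it ran with it. It also ran with the direction of C1qa, Tie1, Tek, Ephb2 and Col15a1 on chromosome 4 and of Postn, Dkk2 and Csf1 on chromosome 3, and against that of Smad9 on chromosome 3. Dmrt2 and Ifit2 on chromosome 19 and Wnt16, Cdkn1b, Met and the clone 9430018G01Rik on chromosome 6 lie where cultures were shifted up. Ndufa4l2 and Dnmt3l lie on chromosome 10, shifted against their direction. Not every named gene on a shifted chromosome is listed here.

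**Figure D4:**
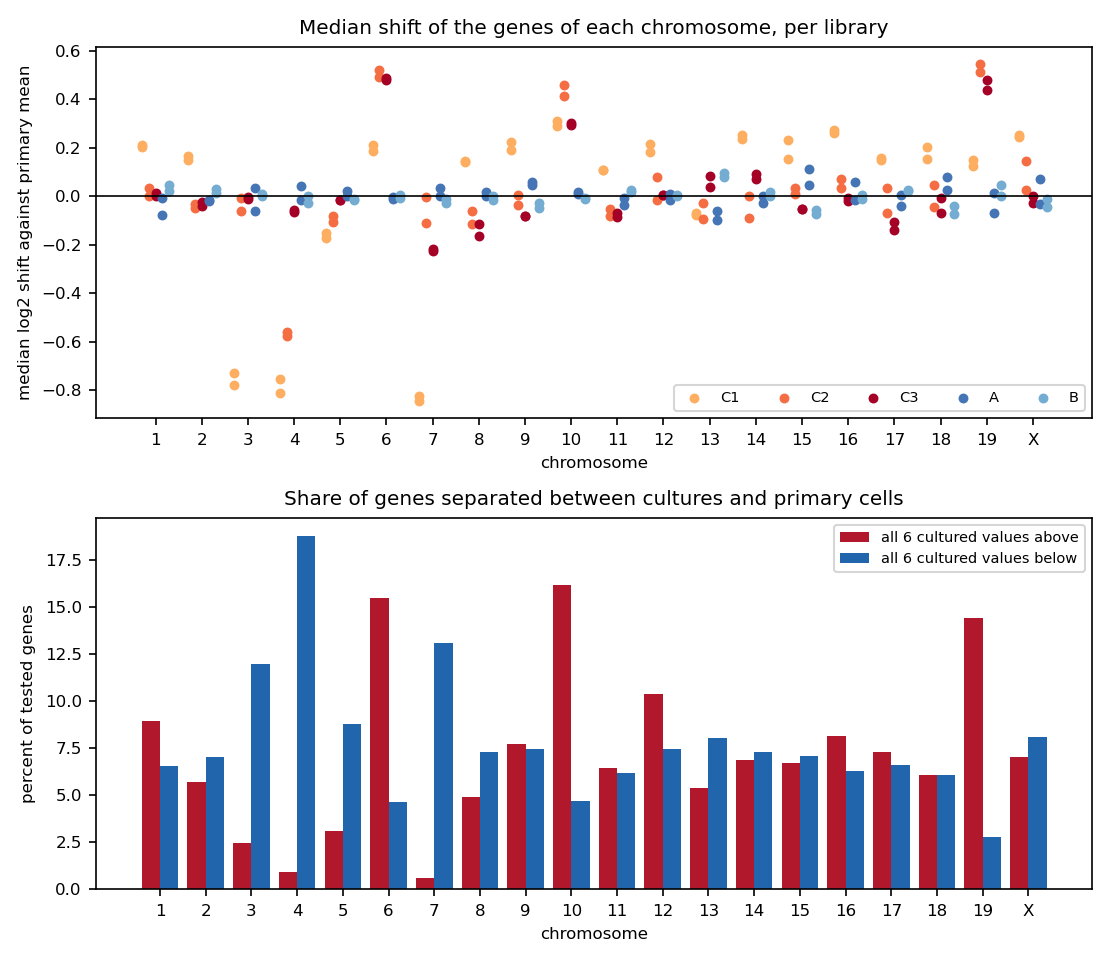
Upper panel, median log2 shift of the tested genes of each chromosome against the primary mean, relative to all genes, one point per library, with cultures C1, C2 and C3 left of primary cells A and B at each chromosome. Lower panel, percent of tested genes with all 6 cultured values above or below the 4 primary values; chromosome 10 reaches 16.2% above and chromosome 4 reaches 18.8% below.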

How the data were processed

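RNA was sequenced from 10 libraries of 5 cell types with an unstranded kit, per the labels' protocols, and the submitters' processing notes name TopHat, DESeq and mm10. The authors deposited 1 table of log2 values per gene, centred on each gene's median. From the values, they were read here as log2 of counts over size factors with a floor of 1 normalized read. This reading was inferred and no raw counts were used, so no count test was possible. Of 36172 genes listed, 18334 were at 0 everywhere, 17 had a date in a cell and were left out, and 17821 had values. Where the level was known, genes with at least 10 normalized reads in at least 2 libraries were kept, as were all genes of unknown level, which left 14254 and removed 3567. Within a tolerance of 0.01, 33.0% to 70.6% of low values per library came out as whole reads, and the level could be found for 1499 tested genes.

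A cell-means model of the 5 types was fitted with limma 3.58.1 in R 4.3.3 (5 residual degrees of freedom) to all tested genes, with Benjamini-Hochberg adjustment over all of them. The script was tested on simulated data. Tables were made with Python 3.11.15, pandas 2.3.3 and numpy 2.4.6. Depth is relative, from the value of 1 read in each library, and limits of 3 reads cover counting error only. Members and gene lists were chosen with earlier results of these data known. Named genes were the 12 with the widest gap in each direction among genes separated and called (clones and predicted genes passed over, values under 7 normalized reads raised to 7), up to 4 called members of each list in its main direction and up to 2 in the other, Kit, Ptprc and sex chromosome genes. List members that met both rules are also named, and a few genes are not reported here. Chromosomes came from RefSeq, matched by gene identifier for 14123 genes. Alternatives covered the model, the scaling, the filter, low values, the minimum difference, single libraries and single cell types, and the chromosome shift was added after the data were seen.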

Additional observations from a re-analysis of the deposited data

Results flagged for a closer look

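Single libraries stood apart from the others of their group in 4 genes, by the gap to the nearest library relative to the range of the group, which chance alone reaches in about 1 in 20 groups. Pax3 was at -7.97 in B replicate 2, where it had 1 normalized read, far under the other 3 primary libraries. Eln was at 7.38 and Cd200 at 10.8 in A replicate 1, both far over the other 3 primary libraries. Cd200 and Ptprc were at 0.0056 in C1 replicate 1, while the other 5 cultures shared the floor. One read in that library was worth 1.01 normalized reads, so the distance was that between 1 read and the floor of 1 normalized read.

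The cultures differed among themselves, by limma's test of C3 minus C1, in 6 of the 23 named genes with the widest gaps. Of all genes tested, 17.1% were higher and 17.7% lower by the same test, so such differences are not particular to these genes. Mbnl3 (1.92), Dlx1 (1.15) and Ppp2r2b (2.05) were higher in C3 than in C1. Dmrt2 (-1.33), Cxcl14 (-2.97) and Gpr35 (-2.37) were lower in C3 than in C1.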

How the results depend on the processing

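The 23 named genes with the widest gaps kept their call under every alternative run except the random block for cell type, under which 11 did. These genes were chosen for their gap and call on the same values, which favours this outcome, so it is no support. The counts depended more on the model. Against 1105 genes called higher and 2424 lower, a 2-group model called 412 and 953, the random block 10 and 75 (all separated), quantile normalization 1747 higher, no minimum difference 3541 and 4473 (958 of the higher ones separated), a minimum of 2 gave 331 and 1390 (163 of the higher ones separated), and calls in each of 6 comparisons 118 and 400. Separation by at least 0.5 was met by 193 genes above and 558 below, by at least 1 by 72 and 326, and by at least 2 by 26 and 167.

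Fewer libraries make separation easier by construction. Leaving out 1 library gave 1029 to 1200 genes called higher, 2321 to 2565 lower, 1011 to 1289 above, 1205 to 1816 below, 418 to 540 above and called and 897 to 1389 below and called, the highest below without A replicate 1. Without A, 1745 were called higher, 2433 were above and 3481 below (1194 and 2462 also called). Without B there were 1745 above and 2054 below (658 and 1327 also called), and without C1 1781 and 1916 (937 and 1330 also called). Without C2 1534 were above, and without C3 1559 were above and 1811 below (683 of those above also called). In a fit of the 4 primary libraries alone, B minus A passed as higher in 9 and lower in 31 of the genes above, and lower in 80 of those below.

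Some averages of named genes changed sign without 1 cell type. They were Tnni3 without C1 (0.036), Pparg without A (-0.20), Sesn1 (0.0065), Atf3 (0.10) and Fosl1 (-0.043) without B, and Usp18 (-0.32), Fosl1 (-0.25), Meg3 (0.28) and Dkk3 (0.36) without C3. The cause was not tested. The replicate block gave 1099 genes higher and 2420 lower and kept 171 of 172 named calls. Same-numbered libraries deviated together with correlations of -0.06 to 0.09 over 10 pairs of types, so the numbers are not known to pair samples. Depth limits genes near the floor: 146 genes below and 17 above lost separation with values under 7 normalized reads raised to 7, and 78 genes below had all cultures at the floor.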
